A study of Mus musculus with 25 samples.

Results

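The genes described here encode the initiation factors of translation, numbered eIF1 to eIF6, in early mouse embryos. They were taken by name: every locus whose symbol begins with Eif and a digit from 1 to 6, leaving out the eIF2 kinases (Eif2ak). The rule gave 51 of the 24708 gene loci in each expression table. RNA was measured in BDF1 mouse embryos at 2 stages. Blastocysts at embryonic day 4.0 carried the label Fzr1-OE (3 libraries) or Control (2 libraries). Embryos of 2 cells, at embryonic day 1.5, were labelled sIVF, IVF or WT, with 2 libraries each. IVF is in vitro fertilisation, while the labels spell out neither sIVF nor OE, and do not say how Fzr1 was altered, how Control embryos were handled or how many embryos were pooled. Fzr1 encodes Cdh1, an activator of the anaphase-promoting complex. All libraries were made from polyadenylated RNA of cytoplasmic lysates.

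Initiation brings a ribosome to the start codon. The eIF4F factors bind the cap of the mRNA and unwind its leader, eIF3 holds the small ribosomal subunit, and eIF2 carries the initiator tRNA. The factors eIF1, eIF1A, eIF5 and eIF5B govern scanning, start codon choice and joining of the large subunit, and eIF2B recharges eIF2 with GTP. In mouse, the eIF1A gene Eif1a and a group of related loci are known among the genes of early zygotic transcription at the 2-cell stage.

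Values are FPKM, read fragments scaled for transcript length and library size, which can be compared between genes. From the deposited bounds of each value, blastocyst libraries held 9324167 to 10483442 fragments and 2-cell libraries 4742698 to 6377606. Counting error (2 SD) at 1 FPKM was 26.9% to 29.0% in blastocysts and 28.7% to 32.6% in 2-cell embryos. The median coefficient of variation between replicates, over the 43 members averaging at least 5 FPKM, was 5.58% in Fzr1-OE and 4.42% in Control blastocysts, against 14.3% in sIVF, 17.3% in IVF and 14.6% in WT embryos. Fzr1 itself was listed at 12.7, 15.5 and 17.1 FPKM in the Fzr1-OE libraries and at 16.5 and 16.5 FPKM in the Control libraries, so its level did not set the labels apart (log2 fold change -0.13, SE 0.16, limma adjusted p = 0.7127), and the groups are called here the libraries labelled Fzr1-OE and Control. All 10 trophectoderm markers were above 0 in every blastocyst library, and all 10 measured 2-cell genes in every 2-cell library except Usp17la and Tdpoz4 in sIVF replicate 1. Of 10 cumulus cell markers, 7 or 8 were at 0 in every library of each group. In all tests below a locus passed at a limma adjusted p under 0.05, adjusted over every locus that averaged 1 FPKM or more, and fold changes are of log2(FPKM + 1).

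Initiation factor transcripts were a larger share of the summed FPKM in blastocysts (1.75% to 1.86%) than in 2-cell embryos (1.05% to 1.33%). Eif5a made this difference: without it the shares were 1.23% to 1.3% in blastocysts and 1.04% to 1.3% in 2-cell embryos. The median member averaged 81.1 FPKM in blastocysts and 44.5 FPKM in 2-cell embryos, and 17 and 13 members averaged at least 100 FPKM. The highest members in blastocysts were Eif5a, a factor that also serves elongation, Eif2s2 (eIF2 beta), the cap inhibitor Eif4ebp1, Eif3k and Eif6, which keeps the large subunit apart. At the 2-cell stage they were Eif2s2, Eif6, Eif5, the cap-binding Eif4e and Eif3g. Members averaging under 1 FPKM were Eif4e3, Eif5a2 and Eif4e1b in blastocysts, and Eif4ebp3, Eif4e1b and Eif4ebp2 in 2-cell embryos.

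**Figure D1:**
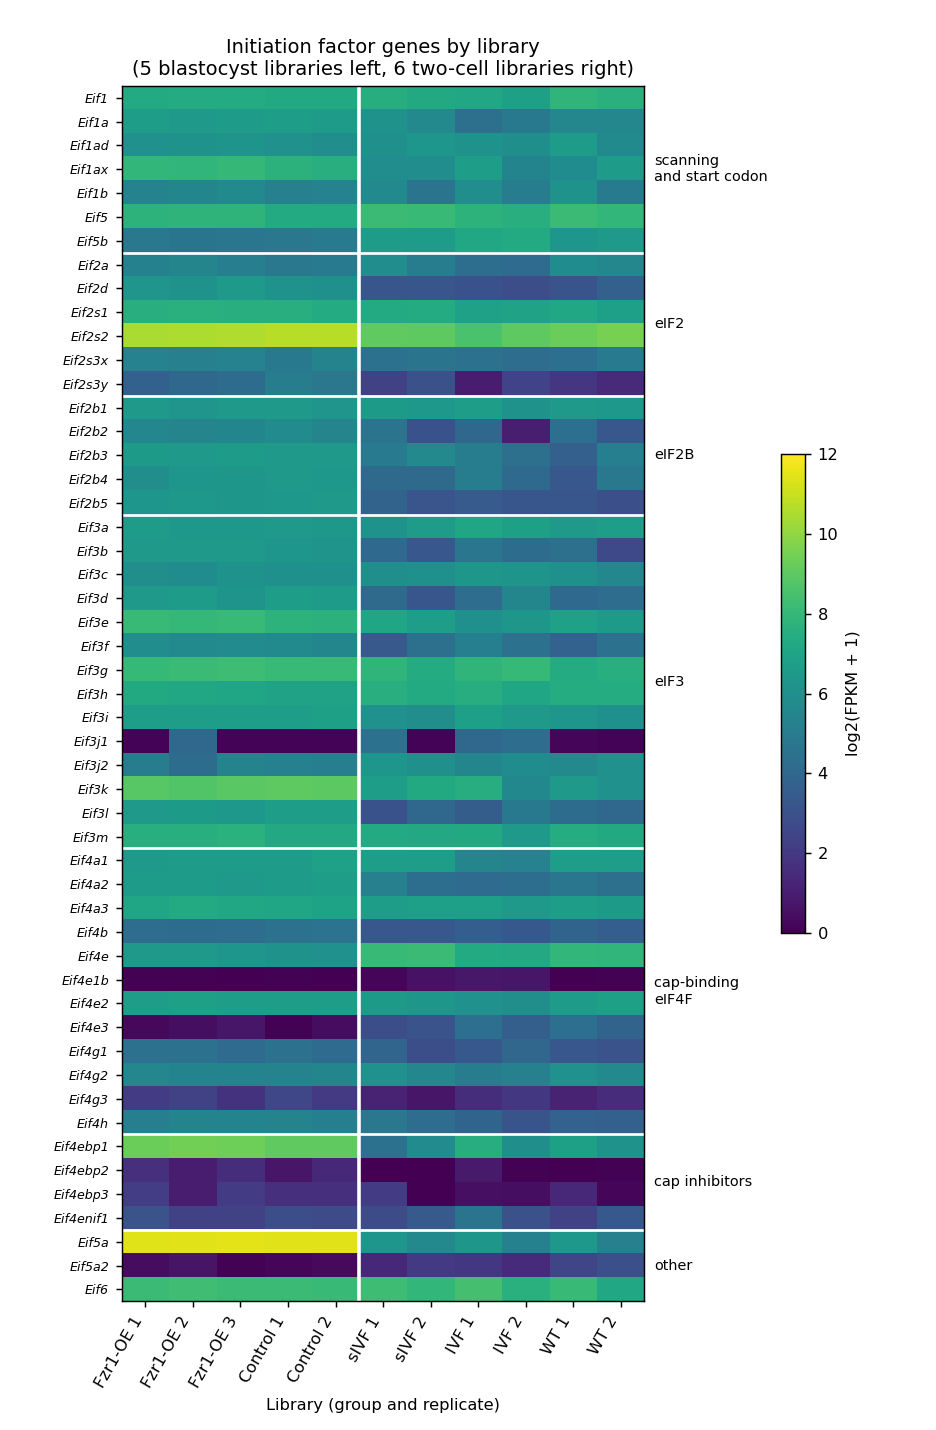
Level of the 51 initiation factor genes (rows, grouped by role) in the 11 libraries (columns), coloured by log2(FPKM + 1). Eif5a and Eif2s2 are the brightest rows of the 5 blastocyst libraries, and Eif4e3, Eif5a2, Eif4e and Eif5b are darker there than in the 6 two-cell libraries.

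Blastocysts labelled Fzr1-OE had more RNA of 4 initiation factor genes and less of 1 than Control blastocysts. The 4 that rose were Eif5, Eif1ax, Eif3e and Eif4ebp1, at folds of 1.23 to 1.37, and the one that fell was the Y-linked Eif2s3y. These 5 were 10.4% of the 48 members tested, against 397 of 9439 loci (4.21%). Upward calls were 8.33% of members and 2.29% of all loci, and downward calls 2.08% and 1.92%. Eif4e1b, Eif4e3 and Eif5a2 were too low to be tested.

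Eif5, which makes eIF2 hydrolyse its GTP once the start codon is found, had 218, 221 and 221 FPKM in Fzr1-OE libraries, against 159 and 162 FPKM in Control libraries. The groups were far apart relative to their spread (log2 fold change 0.45, SE 0.07, limma adjusted p = 0.007294). Its locus, chr12:112776312-112784964 in mm9, holds a small nucleolar RNA gene that was at 0 throughout. Eif1ax, the X-linked eIF1A gene at chrX:155810127-155823631, had 242, 241 and 257 FPKM in Fzr1-OE libraries and 206 and 182 FPKM in Control libraries. It passed narrowly (0.35, SE 0.08, limma adjusted p = 0.04225). Eif3e, an eIF3 subunit at chr15:43081586-43114282, was at 269, 257 and 275 FPKM in Fzr1-OE libraries, against 215 and 208 FPKM in Control libraries. All 3 values lay above both Control values (0.33, SE 0.07, limma adjusted p = 0.02939). Eif4ebp1 at chr8:28370799-28386128, whose protein blocks eIF4E until mTOR phosphorylates it, had 629, 690 and 660 FPKM in Fzr1-OE libraries and 529 and 539 FPKM in Control libraries (0.30, SE 0.06, limma adjusted p = 0.02612).

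Eif2s3y, one of a pair of sex-linked genes for eIF2 gamma (chrY:347055-365037), had 12.3, 15.0 and 17.7 FPKM in Fzr1-OE libraries, against 33.0 and 25.9 FPKM in Control libraries. Every Fzr1-OE value lay below both Control values (log2 fold change -0.93, SE 0.18, limma adjusted p = 0.02299). Its X-linked partner Eif2s3x was at 39.4, 36.9 and 39.4 FPKM in Fzr1-OE libraries and 27.6 and 39.9 FPKM in Control libraries, which overlap. Further sex-linked genes were looked at only after this value was seen. Ddx3y, also Y-linked, had 7.96, 7.65 and 8.60 FPKM in Fzr1-OE libraries and 11.03 and 7.84 FPKM in Control libraries, and did not pass (-0.19, limma adjusted p = 0.6606). Xist, the RNA of the inactive X chromosome, had 4.92, 4.36 and 3.63 FPKM in Fzr1-OE libraries and 1.72 and 1.90 FPKM in Control libraries, and did not pass either (0.91, limma adjusted p = 0.06219). The part of the sex of the embryos in the Eif2s3y and Eif1ax values was not tested.

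**Figure D2:**
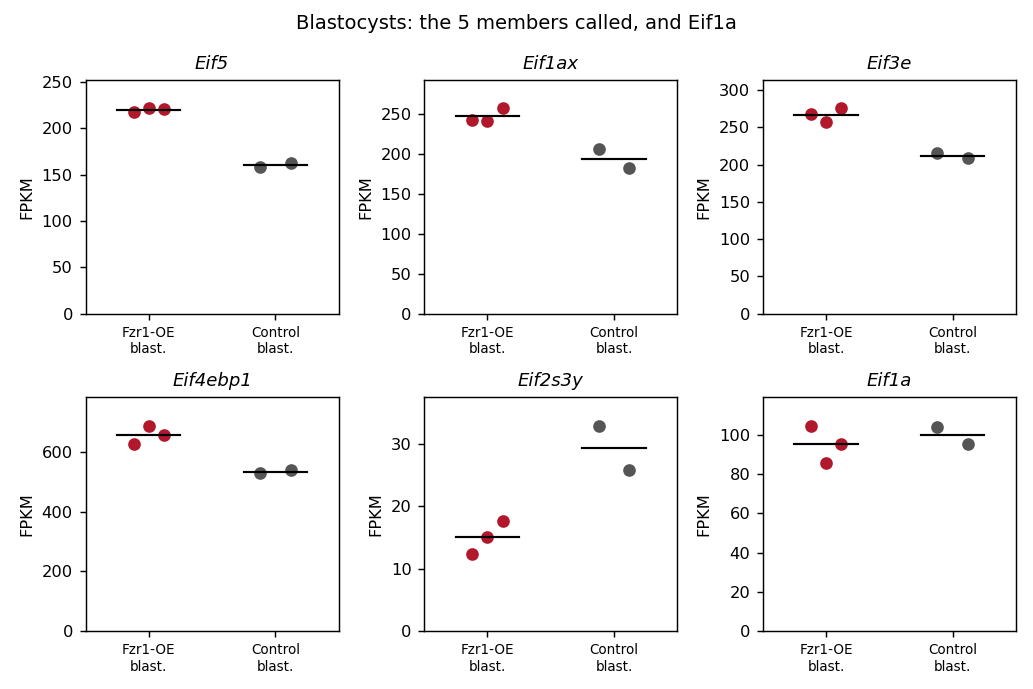
FPKM of the 5 initiation factor genes that passed the test in blastocysts, and of Eif1a, with a point per library and a line at the mean of the 3 Fzr1-OE and the 2 Control libraries. The groups are separate for all but Eif1a.

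None of these 5 calls was firm. All 5 were lost when low loci were kept, when the spread was fitted without an intensity trend, with the replicate number as a block, and without either Control library. Leaving out Fzr1-OE replicate 2 left 1 call (Eif5), and leaving out replicate 3 left 2 (Eif5 and Eif2s3y). The direction of all 5 stayed the same in every alternative tried. Other transcripts also moved with the labels: the summed FPKM of 10 trophectoderm markers was 3817 to 3908 in Fzr1-OE libraries and 6136 to 6306 in Control libraries, with none at 0. Krt18 and Krt8 held most of it, and 7 of the 10 were lower in every Fzr1-OE library than in any Control library. For the 10 measured 2-cell genes it was 47.6 to 51.0 and 13.7 to 15.7 in those groups, with 4 and 6 of them at 0 in every library of the group and 6 of the 10 separate and higher in Fzr1-OE. Their part in the results was not tested. In these bulk samples, fewer cells of a type and less RNA per cell cannot be told apart.

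By role, 2 of 7 scanning and start codon factors passed (Eif5, Eif1ax), and 1 of 6 members of the eIF2 group (Eif2s3y). That group holds Eif2a and Eif2d beside the genes of eIF2 subunits. Of eIF3, 1 of 14 members passed (Eif3e), and of cap inhibitors 1 of 4 (Eif4ebp1). No tested member of eIF2B (5) or of the eIF4F group (10) passed. The median log2 fold change was 0.05 over members and 0.01 over all loci. The values closest to the threshold on its far side were those of Eif3m (186, 180 and 202 FPKM in Fzr1-OE libraries, 149.5 and 152 FPKM in Control libraries, limma adjusted p = 0.05119) and Eif2s2 (1442, 1485 and 1516 FPKM against 1660 and 1685 FPKM, limma adjusted p = 0.07686). Groups were separate for 16 members upward (33.3%, against 19% of all loci) and for 9 downward (18.8%, against 18.4%).

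Eif1a, at chr18:46757358-46769879, showed no such separation. It had 105, 85.7 and 95.4 FPKM in Fzr1-OE libraries and 104 and 95.5 FPKM in Control libraries. Eif1, the scanning factor that guards start codon choice, had 159, 166 and 166 FPKM in Fzr1-OE libraries, against 153 and 156 FPKM in Control libraries, and did not pass. Eif1b, its close relative, was at 40.02, 44.4 and 51.6 FPKM in Fzr1-OE libraries and 36.4 and 38.6 FPKM in Control libraries, and Eif1ad at 65.5, 70.2 and 72.9 FPKM and 66.8 and 57.6 FPKM. Eif5a was nearly level between the groups, at 2761, 2786 and 2874 FPKM in Fzr1-OE libraries and 2780.1 and 2837 FPKM in Control libraries, although quantile normalization called it higher (0.15, limma adjusted p = 0.02437).

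Loci listed as related to Eif1a under other names stood apart. Of the 9 names listed, 7 were found, at 8 loci (BB287469 at 2). All lie on chromosome 12 but Gm4340, which lies on chromosome 10, and kinship to Eif1a was not checked here. Their summed FPKM was 42.3 to 45.1 in Fzr1-OE and 9.77 to 14.4 in Control blastocysts, and 79.8 to 81.1 in sIVF, 60.8 to 73.3 in IVF and 119 to 121 in WT 2-cell embryos. In each of the 3 comparisons of 2-cell embryos, 0 of the 8 loci passed. Their median log2 fold change was -0.79 in IVF against WT, -0.39 in sIVF against WT and 0.1 in sIVF against IVF. Of the 7 tested in blastocysts, 6 were called higher in Fzr1-OE libraries, against 2.29% of all loci. Gm2022 was separate and higher too but did not pass (1.01, limma adjusted p = 0.1399). The median log2 fold change of the 7 was 1.25, against 0.01 over all loci. Gm5662 had 18.4, 14.5 and 14.4 FPKM in Fzr1-OE libraries and 6.95 and 5.19 FPKM in Control libraries (1.25, SE 0.19, limma adjusted p = 0.007844). Gm2016 had 13.9, 9.63 and 10.9 FPKM in Fzr1-OE libraries and 5.52 and 3.54 FPKM in Control libraries (1.18, SE 0.23, limma adjusted p = 0.02389). Gm8300 was at 3.05, 2.38 and 3.45 FPKM, against 0.979 and 0.666 FPKM in Control libraries (1.12, SE 0.26, limma adjusted p = 0.04633).

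BB287469 has 2 loci in the tables. The first had 2.70, 5.18 and 3.08 FPKM in Fzr1-OE libraries and was listed at practically 0 in both Control libraries, and the second had 2.94, 5.74 and 4.38 FPKM, against 0.269 and 0.0146 FPKM in Control libraries. Both passed (limma adjusted p = 0.00462 for the first and 0.004513 for the second). Gm4340 passed as well (2.77, 2.88 and 3.19 FPKM in Fzr1-OE libraries, 0.211 and 0.0570 FPKM in Control libraries, limma adjusted p = 0.005596). No call of the list was left when low loci were kept, with the replicate block or without Control replicate 2, while every tested locus of the list stayed above 0 in each alternative. Transcript sequences of these loci were not compared with each other. Whether the counting split reads among similar copies is unknown, so single values are uncertain. The higher level of the 2-cell genes in the same libraries, given above, moved with them, and its part was not tested.

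**Figure D3:**
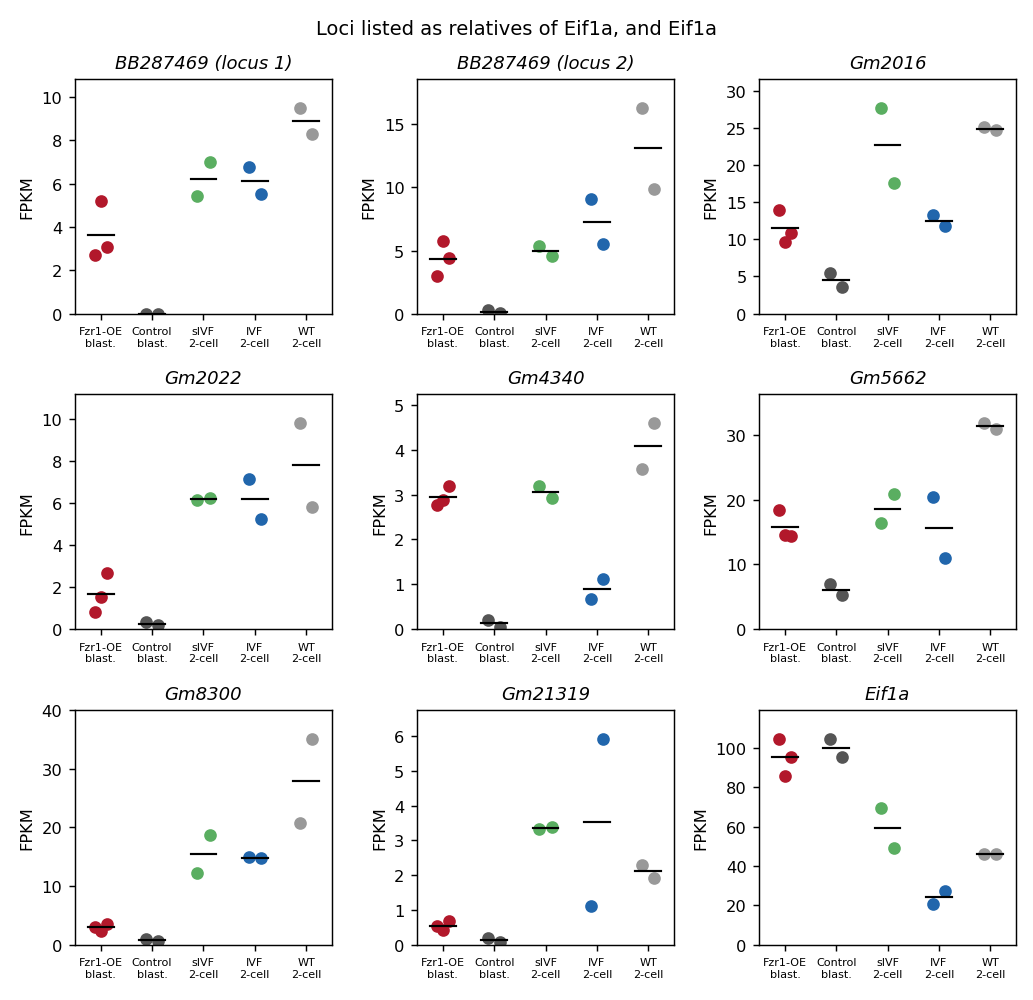
FPKM of 8 loci listed as relatives of Eif1a, and of Eif1a, in all 11 libraries (points, with a line at each group mean). The Fzr1-OE blastocysts lie above the Control blastocysts at all 8 loci but not for Eif1a, and the WT 2-cell embryos reach 35.1 FPKM at Gm8300.

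Promoter sequences of 2 of these loci, both on chromosome 12, are shown because they share long runs of bases; they were picked after their levels were seen. Both are the 250 bases before the annotated start in RefSeq, build GRCm38.p6, and capitals mark the runs that both hold.
BB287469 (chr12:87816327-87816576, plus strand): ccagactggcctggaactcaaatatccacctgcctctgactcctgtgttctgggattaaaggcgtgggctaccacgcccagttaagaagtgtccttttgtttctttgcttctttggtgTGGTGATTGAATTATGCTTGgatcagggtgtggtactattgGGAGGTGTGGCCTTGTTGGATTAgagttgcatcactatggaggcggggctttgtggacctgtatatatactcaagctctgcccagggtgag
Gm21319 (chr12:87775756-87776005, minus strand): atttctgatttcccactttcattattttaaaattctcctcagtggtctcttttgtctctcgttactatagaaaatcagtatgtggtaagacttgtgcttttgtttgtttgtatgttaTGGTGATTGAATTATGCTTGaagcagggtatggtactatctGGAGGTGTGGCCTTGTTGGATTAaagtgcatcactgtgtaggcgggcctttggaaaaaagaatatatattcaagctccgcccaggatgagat
The 20-base run was found, on either strand, in the promoters of 4 of 27025 genes and the 23-base run in those of 3. The runs begin at -132 and -91 in BB287469 and at -133 and -92 in Gm21319, counted from the start, and the match is a description only.

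At the 2-cell stage no initiation factor passed in any of the 3 comparisons, but the factors of smallest p were mostly lower in IVF embryos. In IVF against WT, 0 of 48 members passed the limma test, as did 1 of 8246 loci (0.0121%). At an unadjusted p under 0.05 there were 11 members (22.9%, against 12.4% of all loci), 9 of them lower (18.8%, against 5.55%) and 2 higher (4.17%, against 6.86%). The residual degrees of freedom were 3, and the median standard error of a member was 0.38 on the log2 scale.

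Eif4a1, the main helicase of eIF4F, had the smallest p, with 43.6 and 39.2 FPKM in IVF embryos, against 101 and 104 FPKM in WT embryos (log2 fold change -1.29, SE 0.23, limma adjusted p = 0.09526). In sIVF embryos it had 100.5 and 105 FPKM, next to WT and above both IVF libraries. Eif2a, which can bring initiator tRNA to the ribosome without eIF2, had 19.5 and 17.2 FPKM in IVF, against 56.9 and 46.3 FPKM in WT embryos (-1.44, SE 0.35, limma adjusted p = 0.157). Eif5b, the GTPase of subunit joining, ran the other way, with 139 and 160 FPKM in IVF embryos and 78.6 and 87.3 FPKM in WT embryos (0.84, SE 0.21, limma adjusted p = 0.1637). Its locus overlaps Rev1 by 2794 bases, and Rev1 ranged from 3.82 to 7.48 FPKM.

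Eif4e had 158 and 148 FPKM in IVF embryos, against 246 and 239 FPKM in WT embryos, and Eif1 had 141 and 113 FPKM in IVF, against 232 and 197 FPKM in WT. Eif1a was also lower in both IVF libraries (20.7 and 27.5 FPKM, against 46.0 and 45.9 FPKM in WT; -0.92, SE 0.31, limma adjusted p = 0.3022). Eif1ax was at 105 and 42.1 FPKM in IVF embryos and 57.0 and 94.1 FPKM in WT embryos, Eif1b at 57.2 and 32.7 FPKM and 69.8 and 31.1 FPKM, and Eif1ad at 68.7 and 61.1 FPKM and 99.8 and 53.1 FPKM. Each of these 3 overlapped. Of 10 oocyte and maternal genes, Dppa3 held nearly all of the summed FPKM and was lower, with 3891 and 4379 FPKM in IVF and 5400 and 5611 FPKM in WT embryos. The other 9 summed to 155.5 to 197.3 FPKM in IVF and 105.8 to 134.5 FPKM in WT embryos, and 5 of them (Gdf9, Bmp15, Oosp1, Zar1 and Mos) were higher in both IVF libraries, with Zp2 and Mos at 0 in WT replicate 1. The cumulus markers summed to 6.93 to 8.17 FPKM in IVF and 1.26 to 5.35 FPKM in WT embryos, with 8 and 7 of the 10 at 0 in every library of the group. Only 1 of the 10, Amhr2, was separate and higher in IVF. Without it the sums overlapped, at 0 to 3.48 FPKM in IVF and 0.0399 to 3.92 FPKM in WT embryos. Of the 10 measured 2-cell genes, Zscan4c, Zscan4d and Zscan4f were separate and lower in IVF, Usp17la and Sp110 separate and higher, and 5 overlapped. The 2-cell genes summed to 393.9 to 585.6 FPKM in IVF and 450.0 to 584.0 FPKM in WT embryos. The part of these lists of genes in the values above was not tested.

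In sIVF against WT, 0 of 48 members and 0 of 8246 loci (0%) passed the limma test, with 2 members (4.17%, against 7.09% of loci) at an unadjusted p under 0.05, both lower (2.49% of loci). These were Eif4e3, a divergent cap-binding protein, with 6.28 and 7.42 FPKM in sIVF, against 19.7 and 13.1 FPKM in WT embryos (-1.13, SE 0.45, limma adjusted p = 0.6655), and Eif4ebp1, with 22.3 and 54.6 FPKM in sIVF, against 113.5 and 67.4 FPKM in WT embryos (-1.30, SE 0.56, limma adjusted p = 0.6957). Eif2s2 came next, with 540.4 and 518 FPKM in sIVF and 635 and 742 FPKM in WT embryos (-0.37, limma adjusted p = 0.7402).

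In sIVF against IVF, 0 of 48 members and 0 of 8246 loci (0%) passed the limma test, and 12 members (25%, against 11.8% of loci) had an unadjusted p under 0.05, 7 higher in sIVF (14.6%, against 6.29% of loci) and 5 lower (10.4%, against 5.52%). This comparison shares its IVF libraries with the first one and its sIVF libraries with the second. Eif4a1 again had the smallest p (1.30, SE 0.23, limma adjusted p = 0.0871), followed by Eif4e (269 and 286 FPKM in sIVF; 0.85, SE 0.17, limma adjusted p = 0.1298) and Eif1a (69.7 and 48.9 FPKM in sIVF; 1.26, SE 0.31, limma adjusted p = 0.184). No 2 of the 3 groups overlapped for 6 of the 48 tested members (12.5%, against 10.2% of loci), and for Eif4e1b, which was too low to be tested. From low to high, Eif4e and Eif1a ran IVF, WT, sIVF. Eif1 and Eif4e2, a cap-binding protein known as a repressor, ran IVF, sIVF, WT. Eif5b and the oocyte-type Eif4e1b ran WT, sIVF, IVF, and the helicase cofactor Eif4b ran sIVF, IVF, WT. With 2 libraries a group, none of these orders was a difference that passed.

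**Figure D4:**
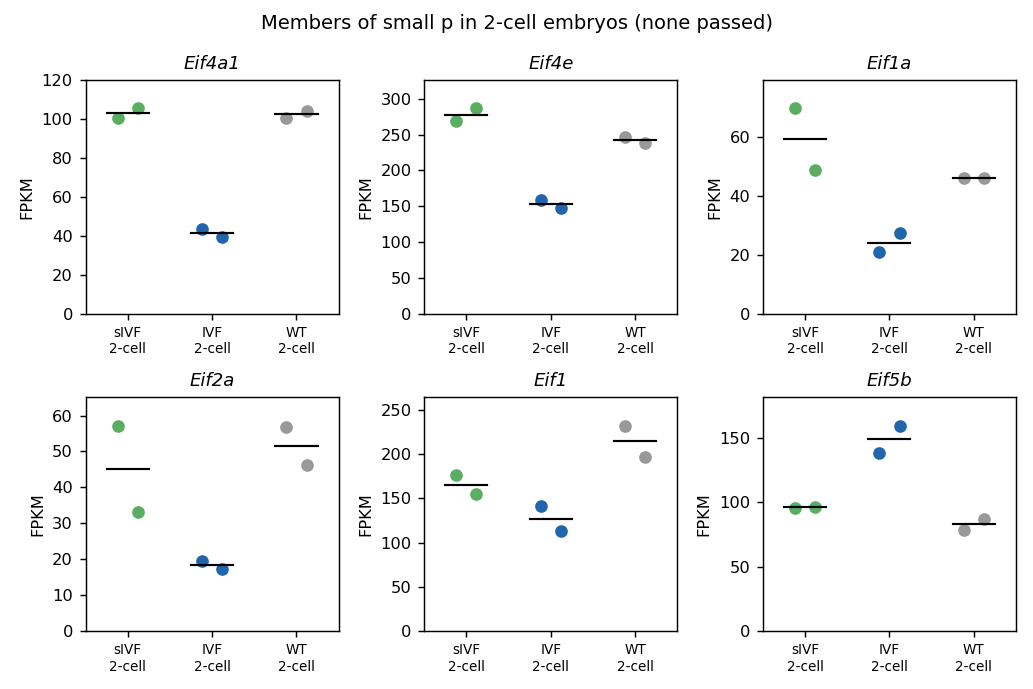
FPKM of 6 initiation factor genes in sIVF, IVF and WT 2-cell embryos, with a point per library and a line at the mean. IVF libraries are lowest for Eif4a1, Eif4e, Eif1a, Eif2a and Eif1 and highest for Eif5b, and none of these differences passed the test.

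Between the stages, Control blastocysts differed from WT 2-cell embryos at most initiation factors, with Eif5a far higher and Eif4e lower. The limma test called 32 of 49 members (65.3%), 24 higher and 8 lower, against 6381 of 9762 loci (65.4%), so the members' share was that of all loci. Upward calls were 49% of members and 45.8% of loci, and downward calls 16.3% and 19.6%. The median log2 fold change was 0.61 over members and 0.88 over all loci. Because the scale of all loci shifted, values are best read against 0.88. After quantile normalization the median of all loci was -0.02, calls over all loci were 2829 higher and 3033 lower (4472 and 1909 before), and members were 13 higher and 20 lower. Shorter transcripts sat higher: of 10 equal classes by implied length, the shortest had a median of 1.33 and the longest -0.38. Stage cannot be told apart from the handling and sequencing of the 2 sets of libraries.

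Calls found in the reported fit and in every alternative in which the member was tested, left-out libraries included, were 10 of the 24 higher (Eif2b5, Eif2d, Eif2s2, Eif2s3y, Eif3b, Eif3d, Eif3k, Eif3l, Eif4a2 and Eif5a) and 5 of the 8 lower (Eif4e, Eif4e3, Eif5, Eif5a2 and Eif5b). The other 3 lower calls (Eif1, Eif2a and Eif3h) were lost without WT replicate 1 and without either Control library. Quantile normalization, upper-quartile scaling and removal of the length trend all lowered the median of all loci (to -0.02, 0.71 and 0.11), so by construction they favour calls of lower over calls of higher. Of the members called higher, Eif2s1, Eif3g, Eif3i and Eif4b lay under 0.88 and turned negative after quantile normalization, and Eif1ax, Eif3e, Eif3g and Eif3i were negative with the length trend removed. With that trend removed, Eif3g (-0.89, limma adjusted p = 0.004568) and Eif3i (-0.89, limma adjusted p = 0.000618) were called lower. Eif2s1 was called lower after quantile normalization (-0.35, limma adjusted p = 0.04999). Eif1a, with 104 and 95.5 FPKM in Control blastocysts and 46.0 and 45.9 FPKM in WT 2-cell embryos, was called higher (1.1, SE 0.22, limma adjusted p = 0.001928), but was only 0.22 above the median of all loci and was not called after quantile normalization (0.23, limma adjusted p = 0.4212).

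**Figure D5:**
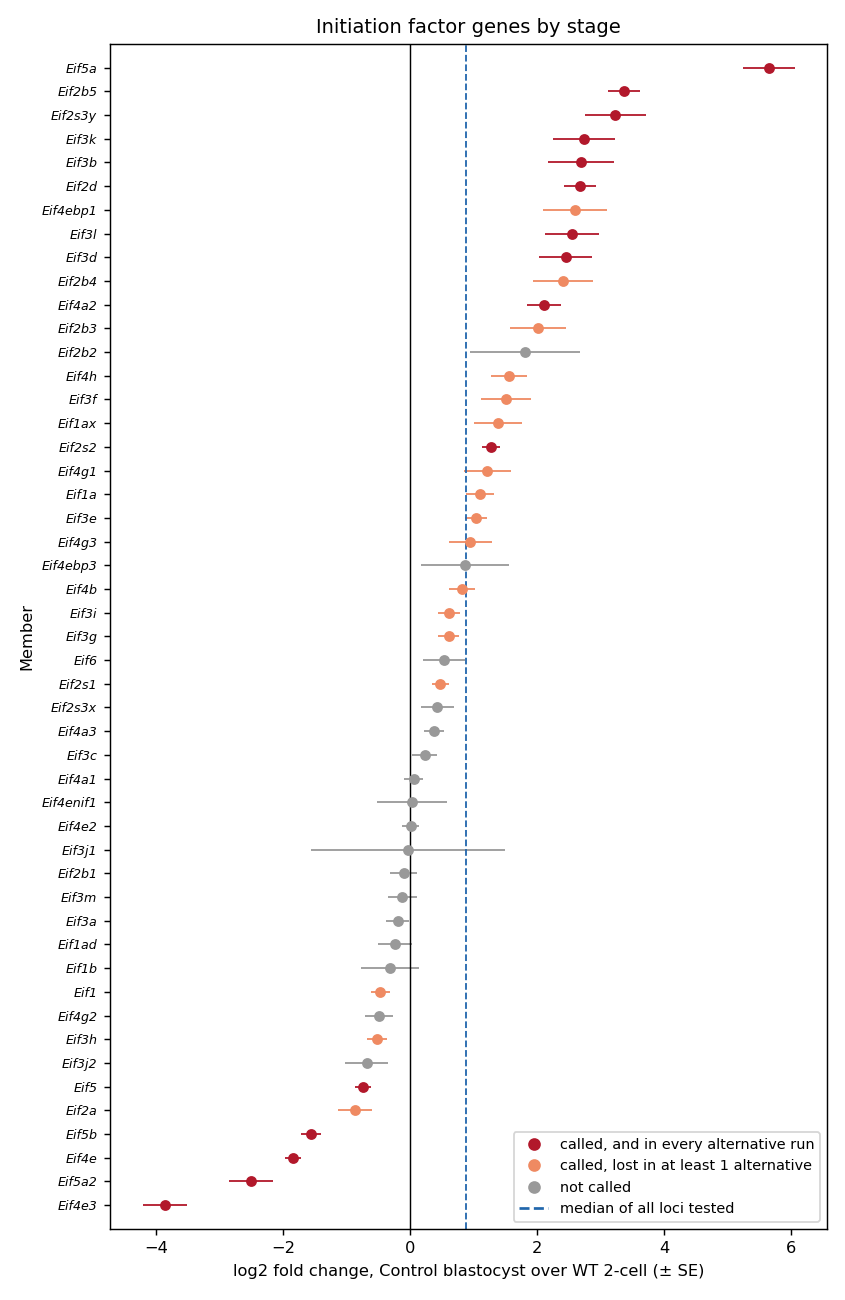
Log2 fold change (± SE) of 49 initiation factor genes, Control blastocysts over WT 2-cell embryos, with a dashed line at the median of all loci (0.88). Eif5a lies furthest to the right at 5.65 and Eif4e3 furthest to the left at -3.86; dark red marks calls found in every alternative run.

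Eif5a had 2780.1 and 2837 FPKM in Control blastocysts, against 83.2 and 36.4 FPKM in WT 2-cell embryos (log2 fold change 5.65, SE 0.41, limma adjusted p = 5.466e-06). Its paralog Eif5a2 went the other way, at 0.119 and 0.248 FPKM in Control blastocysts and 4.75 and 6.74 FPKM in WT embryos (-2.50, SE 0.35, limma adjusted p = 0.0002745). Eif4e had 68.6 and 65.5 FPKM in Control blastocysts, against 246 and 239 FPKM in WT embryos (-1.84, SE 0.12, limma adjusted p = 2.895e-06). Eif4e3 had 0.04997 and 0.322 FPKM in Control blastocysts and 19.7 and 13.1 FPKM in WT embryos (-3.86, SE 0.35, limma adjusted p = 1.841e-05). Eif5b had 26.0 and 29.1 FPKM in Control blastocysts, against 78.6 and 87.3 FPKM in WT embryos (-1.56, SE 0.16, limma adjusted p = 4.479e-05). Smaller falls that passed were those of Eif5 (-0.74) and, less firmly as given above, of Eif2a (-0.87), Eif3h (-0.52) and Eif1 (-0.47).

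The counts by role that follow stand beside 45.8% of all loci called higher and 19.6% called lower. Among the eIF2B subunits, 3 of 5 were called higher, led by the catalytic Eif2b5, with 82.9 and 88.4 FPKM in Control blastocysts, against 8.33 and 6.56 FPKM in WT embryos (3.37, SE 0.25, limma adjusted p = 6.508e-06). The eIF2 group holds Eif2a and Eif2d beside the genes of eIF2 subunits. Of its 6 members 4 were called higher (Eif2s1, Eif2s2, Eif2s3y and Eif2d) and 1 lower (Eif2a), so no subunit gene was called lower in the reported fit. Eif2s1 (0.48) lay under the 0.88 of all loci, however, and was called lower after quantile normalization. Eif2d had 68.8 and 64.3 FPKM in Control blastocysts and 7.58 and 11.99 FPKM in WT embryos (2.68, SE 0.25). Eif2s3y rose too, with 33.0 and 25.9 FPKM, against 2.72 and 1.80 FPKM in WT embryos (3.23, SE 0.48). Of the eIF3 members 8 of 14 were called higher and 1 lower. Of the 8, Eif3g (0.61) and Eif3i (0.62) lay under the 0.88 of all loci and were called lower with the length trend removed. Eif3k had 519 and 498 FPKM in Control blastocysts and 87.0 and 65.3 FPKM in WT embryos (2.74, SE 0.49), and Eif3b (2.70) and Eif3l (2.55) rose similarly. The other roles were 5 of 11 up and 2 down in the eIF4F group, 2 of 7 up and 3 down among scanning factors, 1 of 3 up among cap inhibitors (Eif4ebp1, 2.60, lost with the length trend removed), and 1 up and 1 down among Eif5a, Eif5a2 and Eif6.

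Subunits of eIF2B and of eIF3 were more alike in level in blastocysts, while Eif2s2 and Eif2s3x of eIF2 were further apart there. The highest eIF2B subunit was 1.6 to 2.16 times the lowest across blastocyst libraries and 6.9 to 69.2 times across 2-cell libraries, where Eif2b1 led every time and the lowest was Eif2b5 or Eif2b2. For 12 eIF3 subunits the ratio was 8.0 to 11.1 in blastocysts, with Eif3k highest and Eif3f lowest, and 13.8 to 36.0 in 2-cell embryos. Eif2s2 exceeded Eif2s3x in every library, by 36.6 to 60.2 times in blastocysts and 16.8 to 32.4 times in 2-cell embryos. That ratio leaves out Eif2s3y, the other eIF2 gamma gene. Eif2s3y held 23.82% to 54.46% of the pair in blastocysts and 3.746% to 22.25% in 2-cell embryos. The ratio therefore does not say whether eIF2 subunits as a whole were further apart. Replicates of 2-cell embryos also spread more, as given above, and the part of that spread in these ratios was not tested. Eif3j1 and Eif3j2 occupy the same 25049 bases, so only their sum is read, which was 33.3 to 40.2 FPKM in Fzr1-OE and 37.0 and 34.1 FPKM in Control blastocysts, and 49.8 to 98.7 FPKM in 2-cell embryos.

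Of the paralogs, Eif4e and Eif4e2 changed places between the stages. Eif4e made up 38.2% to 46.5% of the summed FPKM of the 4 eIF4E genes in blastocysts and 64.8% to 76.1% in 2-cell embryos, while Eif4e2 made up 53.4% to 61.7% and 21.8% to 30.5%. Eif4a2, a helicase paralog, held 26.8% to 30.2% of its set in blastocysts and 8.34% to 15.0% in 2-cell embryos. Within the 2-cell stage, Eif4a1 held 41.3% and 45.5% in sIVF, 25.6% and 26.5% in IVF and 43.5% and 48.2% in WT embryos. Eif4g2, an eIF4G relative that lacks the site for eIF4E, held 59.6% to 68.4% of its set in blastocysts and 67.9% to 87.2% in 2-cell embryos. Eif1a held 26.2% to 30.2% of the eIF1A pair in Fzr1-OE and 33.6% and 34.5% in Control blastocysts, and 16.4% to 54.2% in 2-cell embryos. Shares are descriptions and carry no test.

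Promoters of 39 of the 51 members were matched by symbol in RefSeq (GRCm38.p6). In the 250 bases before a start, CACGTG, the E-box letters, occurred in 9 of the 39 (23.1%) and in 6.86% of 27025 genes. GGGCGG occurred in 30 (76.9%, against 35.4% of genes) and TATAAA in 4 (10.3%, against 14.3%); both strands were searched, and a gene with several starts counted if any held the letters. The promoters of Eif5a and Eif4e, the 2 members of smallest p in either direction between the stages, are shown with CACGTG in capitals. For each gene the first listed promoter that held these letters was taken, so the choice itself put them in the sequences shown.
Eif5a (chr11:69921387-69921636, minus strand): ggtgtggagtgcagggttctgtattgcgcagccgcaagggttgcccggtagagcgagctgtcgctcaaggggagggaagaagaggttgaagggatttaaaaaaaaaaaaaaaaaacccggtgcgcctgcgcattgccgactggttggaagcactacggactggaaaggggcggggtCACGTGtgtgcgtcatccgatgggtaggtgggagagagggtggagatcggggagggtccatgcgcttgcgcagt
Eif4e (chr3:138527018-138527267, plus strand): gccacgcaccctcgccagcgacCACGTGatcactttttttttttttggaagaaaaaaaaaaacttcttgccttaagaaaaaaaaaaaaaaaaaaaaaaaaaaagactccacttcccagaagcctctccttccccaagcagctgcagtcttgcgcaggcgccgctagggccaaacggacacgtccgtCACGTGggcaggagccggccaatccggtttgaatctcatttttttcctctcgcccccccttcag
The letters stand in both a member that rose and one that fell. They were in 5 of 19 matched members called higher between the stages and in 2 of 6 called lower.

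Other genes of translation were counted beside the members. In the comparisons within a stage, no tested gene of the lists for eIF2 kinases and phosphatases, mTOR and cap signalling, poly(A)-binding proteins, alternative initiation, elongation or termination passed the limma test. In IVF against WT embryos the smallest p-values of these lists were those of Paip1, a partner of the poly(A)-binding protein (-0.95, SE 0.17, limma adjusted p = 0.09526), and Pdcd4, an inhibitor of the eIF4A helicase (-1.30, SE 0.28, limma adjusted p = 0.1358). In Fzr1-OE against Control blastocysts, the mTOR activator Rheb had 0.27 (SE 0.07, limma adjusted p = 0.07092) and Mcts1, which serves reinitiation, 0.39 (SE 0.11). Between the stages 6 of 6 tested elongation factors were called higher, from 0.66 for Eef1e1, which is under the 0.88 of all loci, to 5.62 for Eef1g, with a median of 2.57. After quantile normalization 4 of the 6 were called higher (Eef1a1, Eef1b2, Eef1g and Eef2), and with the length trend removed these 4 were higher and Eef1e1 lower. Of 6 poly(A)-binding proteins and partners, 1 rose (Pabpc4, 1.59) and 4 fell, led by Paip1 (-6.19, SE 0.34, limma adjusted p = 1.252e-06). The eIF2 kinase list had 3 of 7 higher (Ddit3, Eif2ak4 and Atf4) and 1 lower (Eif2ak3). Of these, Ddit3 and Atf4 are neither kinases nor phosphatases. Eif2ak4 was at 0.0167 and 0 FPKM in WT embryos and at 1.47 FPKM in both Control libraries. In the other 2-cell libraries it was at 3.11 and 1.57 FPKM (IVF) and 1.87 and 2.68 FPKM (sIVF). The mTOR list had 2 of 10 higher (Rps6kb2, Mtor) and 3 lower (Pdcd4, Mknk2, Larp1), and termination 0 of 3 higher and 1 lower (Etf1). After quantile normalization the poly(A)-binding list had 0 higher and 5 lower, the eIF2 kinase list 1 and 2, the mTOR list 1 and 6, and termination 0 and 2. All 8 loci of the list of Eif1a-like names, Gm4340 included, were called lower in Control blastocysts than in WT 2-cell embryos, with a median of -2.50, also under the 3 other scalings.

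The authors' deposited table of gene ontology terms for RNA of subcutaneous fat, from Fzr1-OE and Control mice of 4 months, named none of the 51 members among its 449 selected symbols. The authors' deposited table for DNA methylation of that fat named 1, Eif1b, among 119 symbols, in 6 of 632 terms.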

How the data were processed

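Expression values are FPKM that the authors deposited for each locus and library together with confidence bounds, in columns laid out as by Cufflinks, per the file headers. The submitters' processing notes list HISAT2 2.1.0, Cufflinks 2.2.1 and the build mm9, without roles. Strand and multiply mapped reads: not given in the sources used here. The authors deposited p-values (Fisher) and FDRs per ontology term in the fat tables, per the file headers. H3K9me3 libraries were not analysed here.

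Depth was inferred by reading each bound as 2 SD of a Poisson count, which reflects counting error alone. Among values of fewer than 40 implied fragments, 46.4% to 50.8% in a library were whole within 0.05, so count tests were not used. Tests used limma 3.58.1 in R 4.3.3 (lmFit, then eBayes with a trend on intensity, two-sided) on log2(FPKM + 1), a scale that understates changes of low genes, for loci averaging 1 FPKM or more. Blastocyst libraries (5) and 2-cell libraries (6) had a fit each, and the stage contrast came from all 11. P-values were Benjamini-Hochberg adjusted over the loci tested. The code was tested on simulated data. Groups came from sample titles. Nothing says that replicates came from separate animals or cultures, so p-values measure only the spread between these samples. Between libraries, Pearson r across loci ran 0.967 to 0.981 in blastocysts and 0.839 to 0.881 in 2-cell embryos, and no 2 tables were identical. WT replicate 2 had 1 locus with a status other than OK.

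Named were Eif1a, Eif1, Eif1ad, Eif1ax and Eif1b, members that passed (the 3 of smallest p where none did, and the 8 largest changes per direction between stages), the 5 highest per stage and paralog sets. Others were named after their values were seen. Members and lists were chosen with earlier results of these data known. Settings tried instead were log2(FPKM + 0.1), keeping low loci, a minimum mean of 5 FPKM, quantile and upper-quartile scaling, eBayes without trend or robust, a replicate block, only the groups compared, and each replicate left out. Removing the trend with implied length was added after seeing the data. Promoters were read from RefSeq tables (GRCm38.p6) with Python 3.11.15 and pandas 2.3.3.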

Additional observations from a re-analysis of the deposited data

How the results depend on the processing

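The zero calls of the 3 comparisons of 2-cell embryos stayed at 0 in all alternatives run. In blastocysts, 4 members higher and 1 lower became 0 and 0 with no filter, with no intensity trend and with the replicate block, 2 lower with the length trend removed, and 0 to 3 higher and 0 to 1 lower when a library was left out. With 1 Control library left, that library is assumed to vary like the others. Between the stages, 24 higher and 8 lower became 13 and 20 under quantile normalization and 14 and 20 with the length trend removed, and 5 to 9 lower when a library was left out. The cause was not tested. Deviations from group means of same-numbered libraries correlated at -0.039 to 0.072. These values, taken over all loci, cannot show whether same-numbered libraries were handled together. With the replicate block, 23 higher and 8 lower were called between the stages and 0 in 2-cell comparisons.

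Direction also changed for some members. Under another scaling this included 6 of the 24 members called higher between the stages, as given above. The named members that follow were nearly all not called. In log2 fold change, leaving out a library gave these ranges for IVF against WT: Eif1ad -0.62 to 0.28, Eif1ax -0.78 to 0.52, Eif1b -0.68 to 0.46, Eif6 -0.04 to 0.88, Eif5a -0.58 to 0.59, Eif4ebp1 -0.48 to 1.0 and Eif3k -0.64 to 1.23. For sIVF against WT the ranges were Eif1ad -0.50 to 0.39, Eif1ax -0.67 to 0.04, Eif1b -0.97 to 0.18, Eif3g -0.08 to 0.36, Eif5 -0.04 to 0.20 and Eif5a -0.40 to 0.77. For sIVF against IVF they were Eif1ad -0.02 to 0.24, Eif1ax -0.84 to 0.47, Eif1b -0.86 to 0.29, Eif6 -0.37 to 0.51, Eif5a -0.35 to 0.70 and Eif3k -0.48 to 1.39. For Fzr1-OE against Control they were Eif1a -0.14 to 0.00 and Eif5a -0.02 to 0.01, and between the stages Eif1ad -0.68 to 0.22 and Eif1b -0.88 to 0.26. Upper-quartile scaling gave 0.02 for Eif1ad, 0.05 for Eif1ax and 0.08 for Eif1b in IVF against WT, -0.10 for Eif1ad, -0.15 for Eif6 and -0.04 for Eif5a in sIVF against IVF, and 0.05 for Eif5a in blastocysts. Quantile normalization gave -0.04 for Eif5 and -0.03 for Eif3g in sIVF against WT, 0.00 for Eif1ad in sIVF against IVF, 0.15 for Eif5a in blastocysts, and -0.24 for Eif6 and -0.17 for Eif3g between the stages. With the length trend removed, Eif5a was at -0.16 in IVF against WT and 0.01 in blastocysts, Eif5 at -0.03 in sIVF against WT, and Eif1ax at -0.08, Eif6 at -0.85 and Eif3g at -0.89 between the stages, where Eif3g and Eif1ax had been called higher.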
